A study of Mus musculus with 7 samples.

Results

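The genes described here encode the enzymes of glycolysis, the transporters and kinases that govern the use of glucose and pyruvate, and a set of genes of the response to low oxygen. The members were chosen by symbol from a list of 35 genes, and all 35 were found among the 38124 genes of the count table. They comprised 14 glycolytic enzymes, 2 lactate dehydrogenases, 4 glucose and lactate transporters, 4 pyruvate dehydrogenase kinases, 3 enzymes that make and break down fructose 2,6-bisphosphate, and 8 genes of the hypoxia response. The mRNA was sequenced from High RFP cells, which fluoresce most strongly for RFP and were sorted from mouse neocortex at E15.5. All 7 libraries came from heterozygous *Tis21*-CreERT2 embryos, in which a CreERT2 cassette stands in place of part of *Tis21*, that had received tamoxifen and were electroporated *in utero* at E13.5, 48 hr before collection. In these mice Cre acts in the apical radial glia that are about to produce basal progenitors (BPs) and in their progeny, and it excises a floxed GFP cassette so that nuclear RFP is made. In 3 libraries (Control 1, 2 and 4) the construct carried RFP alone, and in 4 libraries (Sox9 1, 2, 3 and 4) it also carried Sox9, a transcription factor of neural stem cells. The Cre line therefore decides which cells could be marked, and tamoxifen and Cre were common to both groups. By the methods a sort pooled the cortices of several embryos, whereas the study elsewhere counts each library as a single neocortex, so whether a replicate is a pool or an embryo is not settled by the sources used here.

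Glycolysis turns glucose into pyruvate in the cytosol, with a small gain of ATP. Lactate dehydrogenase then converts pyruvate to lactate, whereas the pyruvate dehydrogenase complex carries it into mitochondrial oxidation, and the pyruvate dehydrogenase kinases inhibit that complex. Hif1a is the oxygen-regulated subunit of a transcription factor that is degraded when oxygen is plentiful and that induces many genes of glycolysis, angiogenesis and mitophagy when it is not. Neural progenitors of the developing cortex are known for a high rate of glycolysis, and neurons for a greater reliance on oxidative metabolism.

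*Sox9* itself had 63.9 ± 27.5 CPM (SD, n = 3) in the control libraries and 40.0 ± 8.33 CPM (SD, n = 4) in the libraries labelled Sox9, with overlapping values. Its log2 fold change was -0.68 ± 0.25 (SE), with an adjusted p of 0.0493 by edgeR. The targeted mRNA was thus not higher where the label says so, every direction given here is that of the labels, and the groups are called control and labelled Sox9. The libraries held between 4429704 and 12907778 counts, the labelled Sox9 libraries between 4429704 and 10520214. Of 16522 genes tested with edgeR, 567 were called lower (3.43%) and 1862 higher (11.3%) in the labelled Sox9 libraries at an adjusted p under 0.01. Abundance moved with the direction of change. Genes above an average of 6 on the log2 CPM scale had a median log2 fold change of -0.26, with 8.05% of 3168 called lower and 0.6% called higher, whereas genes up to 4 on that scale had a median of 0.69, with 18.8% of 9512 called higher. Markers of cell types also moved with the groups. Of 20 cell cycle genes, 18 were called lower, with summed levels of 1336 to 2331 CPM in the control and 518 to 589 CPM in the labelled Sox9 libraries, and of 11 radial glia markers tested, 6 were called lower, with 883 to 1463 against 518 to 642 CPM. Of 10 intermediate progenitor markers, 3 were called lower (484 to 594 against 324 to 358 CPM), and of 8 astrocyte markers tested, 2 were called lower and 2 higher (179 to 231 against 129 to 160 CPM). Markers of oligodendrocyte precursors were scarce but higher in the labelled Sox9 libraries, with 4 of 5 tested called (1.05 to 2.09 against 10.7 to 28.3 CPM), *Olig2* among them (log2 fold change 4.44, adjusted p = 0.00371), as were 3 of 4 of choroid plexus (1.34 to 1.74 against 10.02 to 15.5 CPM) and 2 of 10 of mural and meningeal cells (10.9 to 13.53 against 22.0 to 42.3 CPM). These small counts changed when 1 library was left out. They were 2 for oligodendrocyte precursors without Control 1, Control 4 or Sox9 1, 1 for choroid plexus without Control 1, and 1 for mural and meningeal cells without Control 1, Control 4, Sox9 1 or Sox9 3, and astrocyte markers had 1 called lower and 0 to 1 higher without any 1 library. Of 13 neuronal markers none was called by edgeR, 4 had an unadjusted p under 0.05, and their summed levels overlapped (15350 to 18890 against 14010 to 16420 CPM). The summed levels of 11 endothelial markers were 9.27 to 28.1 against 27.5 to 60.6 CPM, with 2 called higher (5 without Control 2), those of microglia and erythroid cells overlapped with 1 called higher in each (0 to 1 and 0 to 4 without 1 library, the 4 without Control 2), and no list of markers had a gene at 0 in every library. With cyclic loess, a normalization described below, 1 oligodendrocyte precursor marker was called higher and no choroid plexus, mural and meningeal or endothelial marker. Their median log2 fold changes went from 3.83, 3.46, 1.79 and 1.54 to 0.94, 1.02, 0.56 and 0.65. That fit called 19 cell cycle genes and 4 radial glia markers lower, beside 1.72% of all genes called lower and 2.2% higher. The part of abundance, cell composition and depth in the results below was not tested, and in bulk samples fewer cells of a type and less RNA per cell cannot be told apart.

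The mRNAs of the pathway were abundant in both groups, and those of a sugar isomerase, a pyruvate kinase and a lactate dehydrogenase were about 30% lower in the labelled Sox9 libraries. Summed over the 35 genes, the level was 6964, 7516 and 6530 CPM in Control 1, 2 and 4 and 4826, 5946, 5621 and 4972 CPM in Sox9 1 to 4, so that the groups did not overlap. A single gene, *Pkm*, held 36.1% to 39.2% of this sum in the control libraries and 31.7% to 36.7% in the labelled Sox9 libraries. The edgeR filter on low counts left 33 of the 35 genes, removing the pyruvate dehydrogenase kinase *Pdk4* and the vasodilator peptide gene *Adm*. Of these 33, 3 fell (*Gpi1*, *Pkm* and *Ldha*), beside 3.43% of all genes tested, and none rose, beside 11.3%. DESeq2 called 6 lower (the same 3 with *Tpi1*, *Pgk1* and *Ldhb*) and none higher, beside 7.42% and 11.0% of the genes it gave an adjusted p. The other 30 did not pass the edgeR test. An unadjusted p under 0.05 was reached by 11 of the 33 (33.3%), beside 44.0% of all genes tested. Among these 11 *Slc16a3* alone was higher, and at an adjusted p under 0.05 the counts were 8 lower and 1 higher, beside 10.8% and 21.9% of all genes. The log2 fold change was below 0 for 24 genes (72.7%), beside 50.2% of all genes tested, and above 0 for 9, and its median was -0.24.

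The same counts were taken by abundance. Of the 14 members above an average of 6 on the log2 CPM scale, 3 were called lower, beside 8.05% of all genes at that level, 11 of the 14 (78.6%) had a log2 fold change below 0, beside 89.6%, and their median was -0.35, beside -0.26. The 11 members between 4 and 6 had a median of -0.18, beside -0.17 for all such genes, and none was called, beside 4.97% of such genes called lower and 1.33% higher. The 8 members up to 4 had a median of -0.03, beside 0.69, and none was called, beside 1.27% called lower and 18.8% higher. Libraries can also be centred at each abundance by cyclic loess normalization, which shifts the median of all genes above 6 to -0.02. With that scaling none of the 33 genes passed the limma test, beside 1.72% of all genes called lower and 2.2% called higher, and their median was -0.11. That fit differs from the edgeR fit in its test as well as its scaling, and which of the 2 accounts for the lost calls was not tested.

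**Figure D1:**
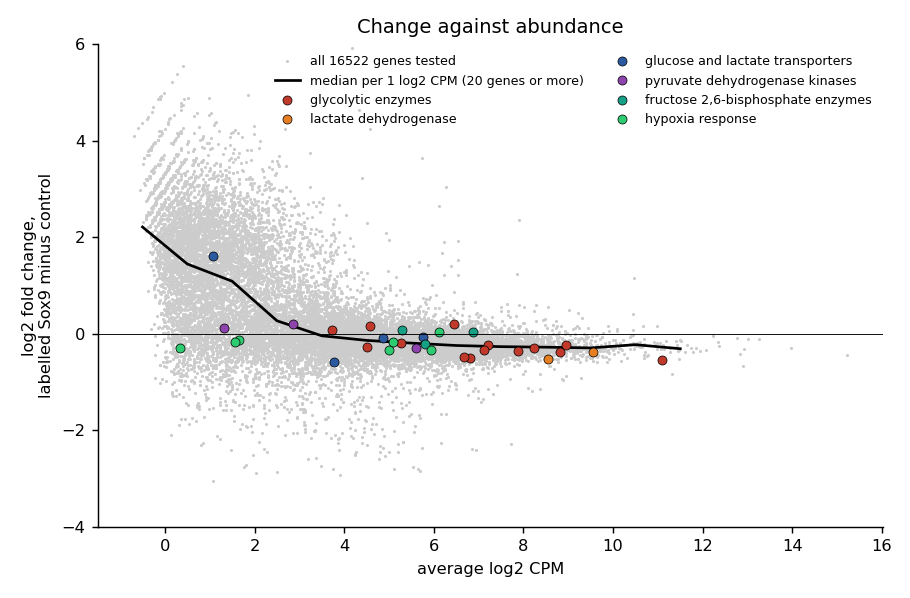
Log2 fold change (labelled Sox9 minus control, y axis) of each gene tested against its average log2 CPM (x axis), with the tested members coloured by role and the black line joining the median of all genes in bins of 1 log2 CPM with 20 genes or more. Members above 6 on the x axis lay mostly at or below the line, with a median of -0.35, and 10 of the 16522 genes lay outside the plotted range.

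The first steps of the pathway trap glucose in the cell and split it into triose phosphates. *Hk1*, the main hexokinase of brain, had 104, 57.9 and 78.5 CPM in Control 1, 2 and 4 and 81.7, 93.4, 105 and 85.6 CPM in Sox9 1 to 4, with a log2 fold change of 0.19 ± 0.17 (SE) and an adjusted p of 0.419. *Hk2*, the hexokinase that is inducible by hypoxia, was far less abundant, at 12.5 ± 2.05 CPM (SD, n = 3) against 13.1 ± 3.31 CPM (SD, n = 4). The ranges of both hexokinases overlapped, and Control 1 held the most *Hk1* among the controls.

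*Gpi1* encodes glucose-6-phosphate isomerase, which makes fructose 6-phosphate, and lies at chr7:34201330-34230336 on the minus strand of GRCm38. It had 135, 145 and 123 CPM in Control 1, 2 and 4 and 90.7, 103, 94.5 and 92.7 CPM in Sox9 1 to 4. The groups did not overlap, and the labelled Sox9 libraries lay close together. *Gpi1* fell by 29.1%, a log2 fold change of -0.50 ± 0.12 (SE), with an adjusted p of 0.00601 by edgeR. With cyclic loess it was -0.25 (adjusted p = 0.137 by limma). The adjusted p lay between 0.0107 and 0.041 when any 1 library was left out, so the call was lost without each of the 7, while the log2 fold change stayed between -0.54 and -0.43.

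Phosphofructokinase, which commits sugar to glycolysis, is built from muscle, liver and platelet subunits. The liver subunit gene *Pfkl* had 162 ± 20.7 CPM (SD, n = 3) against 136 ± 12.2 CPM (SD, n = 4), with no overlap between the groups, and the muscle subunit gene *Pfkm* 158 ± 14.9 against 125 ± 24.4 CPM, with overlap in Sox9 2. Their log2 fold changes were -0.24 (adjusted p = 0.142) and -0.34 (adjusted p = 0.093). *Pfkp*, the platelet subunit gene, stood at 22.0 ± 6.90 against 24.7 ± 4.90 CPM. Below them, the aldolase gene *Aldoa* had 518 ± 73.2 against 398 ± 39.8 CPM, a log2 fold change of -0.38 with an adjusted p of 0.0299. *Tpi1*, the triose phosphate isomerase gene, had 256, 297 and 253 CPM against 201, 213, 231 and 189 CPM, without overlap, a log2 fold change of -0.36 and an adjusted p of 0.0255. Neither of the latter passed the threshold of 0.01.

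The later steps recover ATP. *Pgk1*, which encodes the first of the ATP-generating enzymes and lies on the X chromosome, had 113, 141 and 110 CPM in Control 1, 2 and 4 and 82.1, 90.7, 82.7 and 92.1 CPM in Sox9 1 to 4. All labelled Sox9 libraries lay below all control libraries, and the log2 fold change was -0.48 ± 0.13 (SE), with an adjusted p of 0.0106 that narrowly missed the threshold. *Eno1*, the enolase gene of most tissues, had 539 ± 69.7 against 456 ± 40.0 CPM (log2 fold change -0.24, adjusted p = 0.128), and *Eno2*, the neuronal enolase gene, 41.2 ± 8.51 against 36.1 ± 9.60 CPM (-0.18, adjusted p = 0.517). The phosphoglycerate mutase gene *Pgam1* had 24.6, 24.5 and 26.5 CPM against 22.9, 22.8, 20.2 and 16.8 CPM, with no overlap but a log2 fold change of -0.28 and an adjusted p of 0.232.

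*Pkm* encodes the pyruvate kinase that forms pyruvate and ATP in the last step, in the muscle and embryonic forms that arise by splicing, which counts per gene do not separate. It lies at chr9:59656368-59679375 on the plus strand. Its level was 2512, 2947 and 2540 CPM in Control 1, 2 and 4 and 1530, 2114, 2064 and 1648 CPM in Sox9 1 to 4. The highest labelled Sox9 library, Sox9 2, was still below the lowest control, whereas Sox9 1 and 4 stood furthest down. *Pkm* fell by 31.0%, a log2 fold change of -0.54 ± 0.13 (SE), with an adjusted p of 0.00738 by edgeR, which cyclic loess gave as -0.27 (adjusted p = 0.118 by limma). The call was kept without Sox9 2 (adjusted p = 0.00961) or Sox9 3 (0.00938) and lost without Control 1 (0.0123), Control 2 (0.0473), Control 4 (0.0223), Sox9 1 (0.0303) or Sox9 4 (0.0486).

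**Figure D2:**
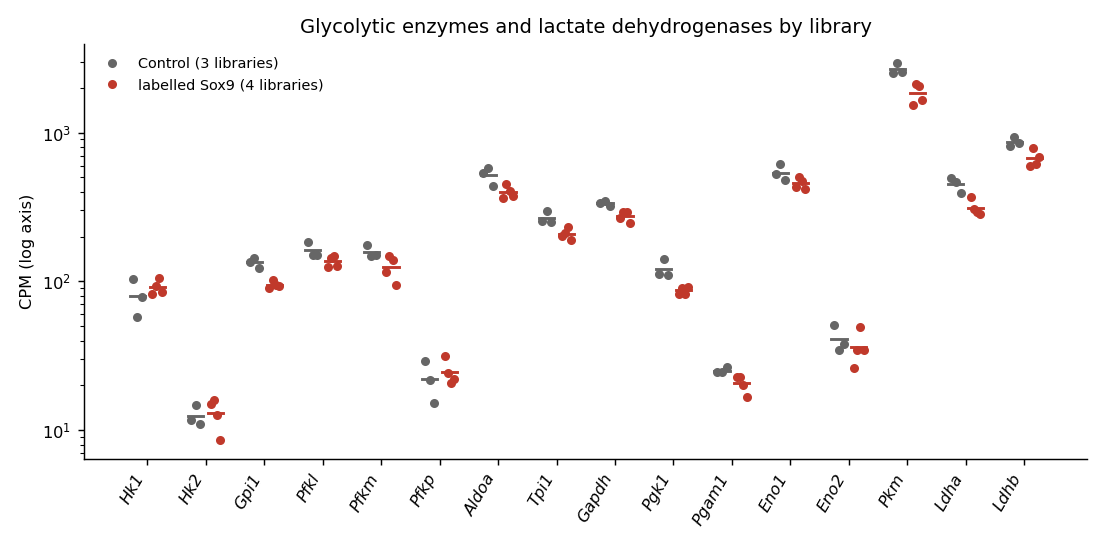
CPM (log axis) of the 14 glycolytic enzyme genes and 2 lactate dehydrogenase genes in each library, with a bar at the mean of each group (3 control and 4 labelled Sox9 libraries). In *Gpi1*, *Pfkl*, *Tpi1*, *Gapdh*, *Pgk1*, *Pgam1*, *Pkm*, *Ldha* and *Ldhb* every labelled Sox9 point lies below every control point.

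Over the 14 glycolytic enzyme genes, 2 were called lower and none higher. Of all genes tested 3.43% were called lower and 11.3% higher, and of genes above 6 on the log2 CPM scale 8.05% and 0.6%. A log2 fold change below 0 was found in 11 of the 14 (78.6%), beside 50.2% of all genes and 89.6% of those above 6. The median was -0.29. In 7 of the 14 the groups did not overlap, with the labelled Sox9 libraries lower, beside 16.4% of all genes tested and 45.4% of genes above an average of 6 on the log2 CPM scale. In none of the 14 were the labelled Sox9 libraries all higher, beside 22.9% of all genes and 1.1% of those above 6. The 7 were not all abundant, since *Pgam1* had an average of 4.52 on that scale.

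*Gapdh*, the glyceraldehyde 3-phosphate dehydrogenase gene, is widely used as a reference for qPCR, in this study too. It had 336, 349 and 324 CPM in Control 1, 2 and 4 and 266, 293, 292 and 246 CPM in Sox9 1 to 4, without overlap, with a log2 fold change of -0.29 ± 0.11 (SE) and an adjusted p of 0.0483. Other reference genes stood in the same range. Of the 13 reference genes of the list, which includes *Gapdh* and *Pgk1*, none was called by edgeR and 4 lower by DESeq2 (*Pgk1*, *Actb*, *Tbp* and *Rplp0*). Of all genes tested, edgeR called 3.43% lower and 11.3% higher. DESeq2 called 7.42% lower and 11.0% higher of the genes it gave an adjusted p. An unadjusted p under 0.05 was reached by 8 (61.5%), beside 44.0% of all genes and 49.2% of genes above 6 on the log2 CPM scale. The log2 fold change was below 0 for 12 (92.3%), beside 50.2% and 89.6%, and the median was -0.29. With cyclic loess none was called, beside 1.72% of all genes called lower and 2.2% higher. Measured in each library against the geometric mean of 8 others (*Actb*, *Hprt*, *Tbp*, *Ywhaz*, *Sdha*, *Ppia*, *B2m* and *Rplp0*), the ratio of *Gapdh* was 0.743, 0.715 and 0.692 in the controls and 0.686, 0.709, 0.831 and 0.673 in the labelled Sox9 libraries. The mean log2 difference was 0.012 (exact permutation test, two-sided, n = 3 and 4, p = 0.971). Against *Actb* alone it was 0.15 (exact permutation test, p = 0.371). The smallest p that 35 splits of 7 libraries allow is 0.0286. Fold changes of the other 11 reference genes ran on the log2 scale from -0.44 for *Actb* through -0.42 for *Tbp*, -0.35 for *Sdha*, -0.33 for *Hprt*, -0.31 for *Rplp0*, -0.26 for *Ppia*, -0.20 for *Ywhaz*, -0.18 for *Eef2*, -0.13 for *B2m* and -0.11 for *Tuba1a*, to 0.50 for *Gusb*. Their adjusted p lay between 0.0167 and 0.683.

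*Gapdh* is also the member whose sequence is copied most widely in the genome. Of the 1199 stretches of 75 bases in the transcript with the longest coding sequence, 88.2% were also found, letter for letter, in the annotated transcripts of other genes, 121 in all. The stretch from base 507 to base 581 of the transcript, shown because it was the one found in the most other genes (49), read as follows in GENCODE, in lower case throughout.
Gapdh 75-base stretch: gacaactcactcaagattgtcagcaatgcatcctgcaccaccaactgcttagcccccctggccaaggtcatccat
Of those 121 genes, 72 were in the count table. Their summed level was 55.6, 43.6 and 74.9 CPM in Control 1, 2 and 4 and 120, 97.6, 116 and 113 CPM in Sox9 1 to 4, the opposite order to *Gapdh* itself. How the counting divided reads between *Gapdh* and these copies is not given in the sources used here, so its level is uncertain. The mean of the copies' sum was 58.0 CPM in the controls and 112 CPM in the labelled Sox9 libraries, and that of *Gapdh* 336 and 274 CPM. The part of the copies in the *Gapdh* difference was not tested. The shared portion was 67.5% for *Pgk1*, 65.4% for *Eno1*, 40.6% for *Pgam1*, 31.0% for *Bnip3*, 16.7% for *Ldhb*, 15.6% for *Pkm*, about 10% for *Gpi1* and 5.2% for *Ldha*. The copies of these genes that were in the count table together held at most 8.45 CPM in either group mean, for *Eno1*. For *Gpi1* the copy held 0.37 CPM in the controls and 1.81 CPM in the labelled Sox9 libraries, and for *Ldha* 1.70 and 5.25 CPM.

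The lactate dehydrogenases interconvert pyruvate and lactate, *Ldha* encoding the subunit that favours lactate and *Ldhb* the one that favours pyruvate. *Ldha*, at chr7:46841475-46855627 on the plus strand, had 494, 463 and 396 CPM in Control 1, 2 and 4 and 368, 309, 294 and 283 CPM in Sox9 1 to 4. The groups did not overlap, Sox9 1 lying closest to the controls. *Ldha* fell by 30.4%, a log2 fold change of -0.52 ± 0.12 (SE), with an adjusted p of 0.00629 by edgeR, against -0.26 (adjusted p = 0.157 by limma) with cyclic loess. The call was kept without Control 4 (adjusted p = 0.00853) or Sox9 1 (0.00499) and lost without Control 1 (0.0261), Control 2 (0.024), Sox9 2 (0.0149), Sox9 3 (0.0203) or Sox9 4 (0.0296). *Ldhb* had 816, 941 and 853 CPM against 592, 783, 620 and 688 CPM, likewise without overlap, with a log2 fold change of -0.38 and an adjusted p of 0.0258. The ratio of *Ldhb* to *Ldha*, both per exonic kilobase, was 3.48, 4.28 and 4.55 in the controls and 3.39, 5.34, 4.45 and 5.12 in the labelled Sox9 libraries. It overlapped between the groups, with a mean log2 difference of 0.14 (exact permutation test, n = 3 and 4, p = 0.514). *Ldhb* was thus the more abundant subunit mRNA in every library.

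Glucose enters through *Slc2a1* (Glut1) and the neuronal transporter *Slc2a3* (Glut3), and lactate crosses the membrane through *Slc16a1* (Mct1) and *Slc16a3* (Mct4), a transporter of highly glycolytic cells. None of the 4 passed the test with edgeR, DESeq2 or cyclic loess, 1 had an unadjusted p under 0.05, and the median log2 fold change was -0.08. *Slc2a1* had 30.0 ± 6.07 CPM (SD, n = 3) against 28.2 ± 5.47 CPM (SD, n = 4) and *Slc2a3* 55.5 ± 8.91 against 52.9 ± 2.44 CPM. The difference between the group means was under 1 SD of the controls for both.

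The lactate transporters had log2 fold changes of opposite sign, neither of which passed the test. *Slc16a1* had 24.4, 13.6 and 11.3 CPM in Control 1, 2 and 4 and 12.8, 10.8, 7.04 and 13.6 CPM in Sox9 1 to 4, with Control 1 high, a log2 fold change of -0.59 ± 0.29 (SE) and an adjusted p of 0.13. Without Control 1 it was -0.21. *Slc16a3* was scarce, with 17, 5 and 7 counts against 35, 13, 17 and 18 counts, or 1.63, 0.435 and 0.712 CPM against 4.81, 1.23, 1.90 and 3.78 CPM. The groups overlapped, since Control 1 held more than Sox9 2. Its log2 fold change of 1.62 ± 0.58 (SE) had an adjusted p of 0.0457, which does not pass 0.01. It lay between 1.26 without Sox9 1 and 2.28 without Control 1, and scaled by cyclic loess it was 0.38 (adjusted p = 0.657 by limma). Genes up to an average of 4 on the log2 CPM scale, where *Slc16a3* lies at 1.07, had a median log2 fold change of 0.69.

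Of the pyruvate dehydrogenase kinases, 3 were tested and none was called with edgeR, DESeq2 or cyclic loess, nor had any an unadjusted p under 0.05. *Pdk2*, the most abundant, had 58.5, 63.2 and 41.9 CPM in Control 1, 2 and 4 and 19.0, 56.5, 49.2 and 52.0 CPM in Sox9 1 to 4, and Sox9 1 alone lay below the control range (log2 fold change -0.30, adjusted p = 0.416, and -0.028 without Sox9 1). *Pdk1*, a classic Hif1a target, had 6.49 ± 1.63 against 7.52 ± 2.01 CPM and *Pdk3* 2.18 ± 1.41 against 2.35 ± 0.508 CPM. *Pdk4*, a kinase induced on fasting, had 1, 11 and 3 counts against 6, 7, 6 and 2 counts and was not tested.

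The Pfkfb enzymes set the level of fructose 2,6-bisphosphate, the strongest activator of phosphofructokinase. *Pfkfb3*, whose product favours its synthesis, had 116 ± 22.4 CPM (SD, n = 3) against 119 ± 26.4 CPM (SD, n = 4). *Pfkfb2* had 60.3 ± 2.74 against 52.3 ± 6.64 CPM and *Pfkfb4* 37.9 ± 1.57 against 39.6 ± 6.37 CPM. None passed the test with edgeR, DESeq2 or cyclic loess, the adjusted p by edgeR lay between 0.262 and 0.889 with no unadjusted p under 0.05, and all 3 overlapped between the groups.

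Among the 8 genes of the hypoxia response, 7 were tested, none was called with edgeR, DESeq2 or cyclic loess, and 1 (*Bnip3*, 14.3%) had an unadjusted p under 0.05, beside 44.0% of all genes. The log2 fold change was below 0 for 6 of the 7 (85.7%), beside 50.2% of all genes, and the median was -0.18. The 7 differ in abundance. *Hif1a*, *Egln1* and *Bnip3* lie between 4 and 6 on the log2 CPM scale, where 72.6% of genes were below 0 and the median was -0.17. *Egln3*, *Vegfa* and *Ankrd37*, also below 0, lie under 4, where 28.0% of genes were below 0 and the median was 0.69. *Ndrg1*, the gene above 0, lies above 6. *Hif1a* had 34.0, 35.7 and 38.2 CPM in Control 1, 2 and 4 and 27.1, 32.3, 21.5 and 34.0 CPM in Sox9 1 to 4. The highest labelled Sox9 library, Sox9 4, lay just under the lowest control, Control 1, with 33.97 and 34.03 CPM. The log2 fold change was -0.33 ± 0.17 (SE), with an adjusted p of 0.158, and without Sox9 3 it was -0.19. Counts of *Hif1a* mRNA do not measure the protein, whose stability is what oxygen controls.

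The prolyl hydroxylases mark Hif1a for degradation in the presence of oxygen. *Egln1*, the main one, had 37.6, 38.0 and 34.1 CPM against 34.9, 33.7, 32.6 and 27.3 CPM (log2 fold change -0.18, adjusted p = 0.373). *Egln3*, which is itself induced by hypoxia, was near the limit of detection, with 4, 25 and 8 counts in Control 1, 2 and 4 and 4, 16, 9 and 2 counts in Sox9 1 to 4. Control 2 and Sox9 2 held the most of it in their groups.

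The remaining hypoxia genes are used as reporters of Hif1a activity. *Bnip3*, a receptor for mitophagy, had 61.2, 69.6 and 74.9 CPM against 53.4, 58.1, 44.7 and 62.3 CPM, with Sox9 4 inside the control range, a log2 fold change of -0.33 and an adjusted p of 0.0892. *Vegfa*, the angiogenic growth factor gene, had 2.87, 3.30 and 3.15 CPM in Control 1, 2 and 4 and 2.20, 1.98, 2.35 and 5.24 CPM in Sox9 1 to 4. Sox9 4 stood above all other libraries and Sox9 1 to 3 below all controls, so that the fitted log2 fold change of -0.13 (adjusted p = 0.828) describes neither, and without Sox9 4 it was -0.46.

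*Ankrd37*, a small ankyrin repeat gene, had 2.91 ± 0.494 against 2.59 ± 0.588 CPM. *Ndrg1*, a stress-responsive gene, had 103, 44.9 and 55.7 CPM against 63.6, 78.8, 73.8 and 61.7 CPM, a log2 fold change of 0.03, with Control 1 high. *Adm* had 1, 13 and 6 counts in Control 1, 2 and 4 and 1, 0, 1 and 0 counts in Sox9 1 to 4, and was not tested. With cyclic loess the scarce genes of the hypoxia response lay further below 0, *Egln3* at -1.63 in place of -0.29, *Ankrd37* at -0.88 in place of -0.17 and *Vegfa* at -0.85, with adjusted p of 0.0766, 0.0906 and 0.156 by limma. The median of the 8 members up to 4 on the log2 CPM scale was then -0.54 in place of -0.03. For *Adm*, a count of 0 allows up to 3 counts in that library, and Control 1 and Sox9 1 held 1 count each.

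**Figure D3:**
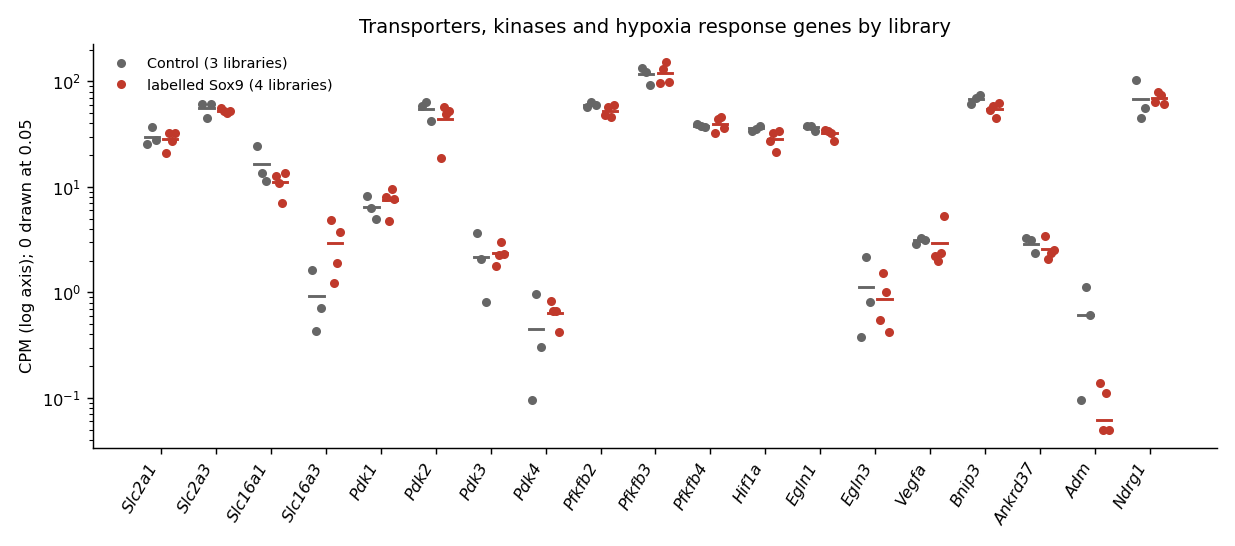
CPM (log axis, with values of 0 drawn at 0.05) of the transporters, pyruvate dehydrogenase kinases, Pfkfb enzymes and hypoxia response genes in each library, with a bar at the mean of each group (3 control and 4 labelled Sox9 libraries). In *Hif1a* every labelled Sox9 point lies below every control point, and *Vegfa* shows a single high labelled Sox9 library at 5.24 CPM.

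Hif1a and its partners bind a short core in the promoters of their targets, the hypoxia response element, whose letters are ACGTG or GCGTG. The core was sought on both strands in the 250 bases before the start of each gene, overlapping matches counting as 1, in RefSeq promoters of GRCm38.p6, which matched 33 of the 35 members. It was present in 26 of these 33 (78.8%), beside 45.3% of 16188 promoters of protein-coding genes, and 15 (45.5%) held 2 or more, beside 17.7%. The list was chosen in part as targets of Hif1a, so this surplus may be built into the choice of genes and is no result of the counts. The promoters of *Ldha*, *Pgk1* and *Gpi1* are printed because these genes had log2 fold changes of -0.52, -0.48 and -0.50 and hold 3, 2 and 0 cores. Capitals mark a core on either strand, so that CACGT is ACGTG read on the other strand, and a run of 6 capitals is a pair of overlapping matches.
Ldha chr7:46845554-46845803, plus strand: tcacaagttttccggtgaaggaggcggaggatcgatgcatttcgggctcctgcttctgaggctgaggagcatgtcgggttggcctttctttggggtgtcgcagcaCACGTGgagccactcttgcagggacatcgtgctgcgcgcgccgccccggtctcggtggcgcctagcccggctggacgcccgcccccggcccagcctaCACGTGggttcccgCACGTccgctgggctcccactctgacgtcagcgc
Pgk1 chrX:106186850-106187099, plus strand: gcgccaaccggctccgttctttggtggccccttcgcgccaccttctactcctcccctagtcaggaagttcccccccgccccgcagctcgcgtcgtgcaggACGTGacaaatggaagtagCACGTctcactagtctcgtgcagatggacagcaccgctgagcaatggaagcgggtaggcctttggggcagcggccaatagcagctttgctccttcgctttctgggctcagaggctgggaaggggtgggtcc
Gpi1 chr7:34230337-34230586, minus strand: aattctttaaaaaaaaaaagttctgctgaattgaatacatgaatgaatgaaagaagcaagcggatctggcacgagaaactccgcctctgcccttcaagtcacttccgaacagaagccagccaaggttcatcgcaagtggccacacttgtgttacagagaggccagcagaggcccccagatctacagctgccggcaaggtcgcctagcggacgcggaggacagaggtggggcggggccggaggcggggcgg
The window of *Ldha* precedes the RefSeq start that was used, which lies 4329 bases inside the span that GENCODE gives the gene. The window of *Pkm*, the third gene that fell, held no core, but 208 of its 250 bases lie within exons of the gene in GENCODE, so little of it is upstream of the GENCODE start. That of *Vegfa* held none either, while that of *Bnip3* held 4. A match is a description of these letters and not of binding, and its absence from this window says nothing of sites elsewhere.

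**Figure D4:**
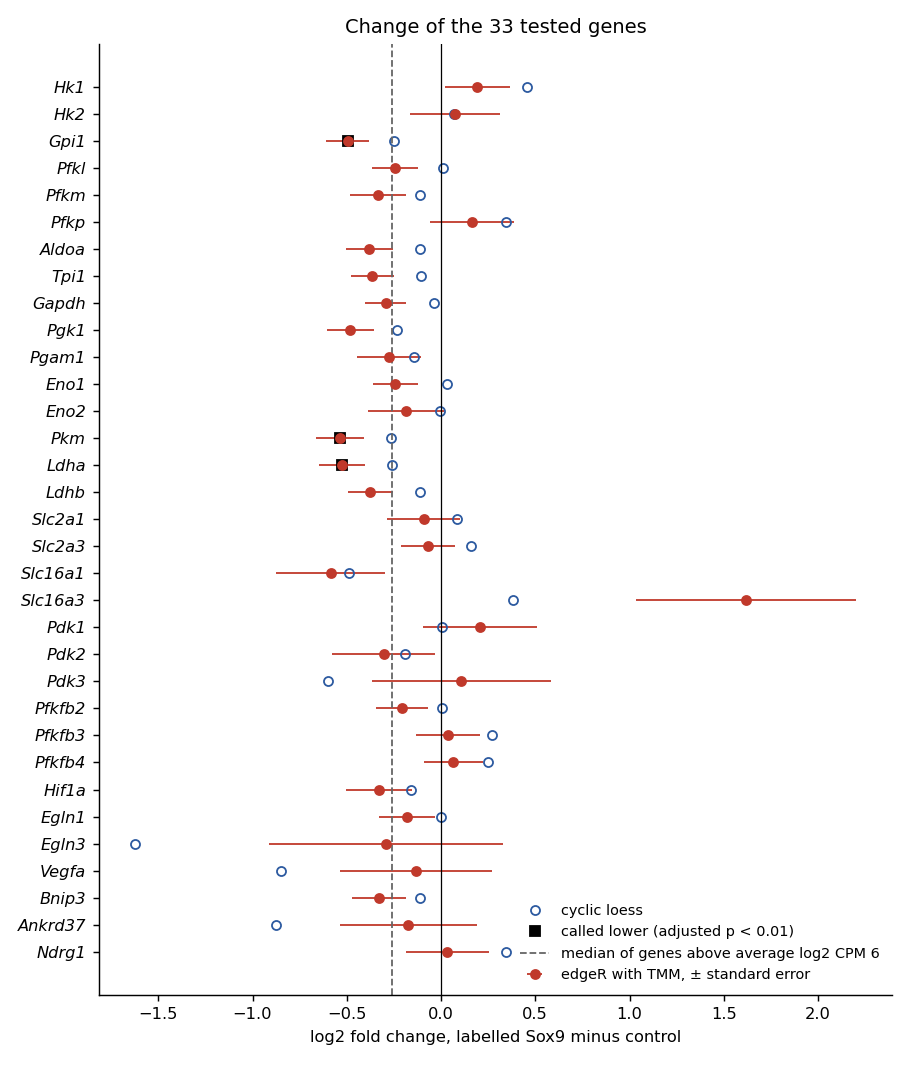
Log2 fold change (labelled Sox9 minus control, x axis) of the 33 tested genes by edgeR with TMM scaling, with bars of 1 standard error, and by cyclic loess (open circles). Black squares mark the 3 genes called lower, and the dashed line is the median of -0.26 of all genes above an average of 6 on the log2 CPM scale.

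The steps that have several isoenzymes allowed a comparison within each library that does not depend on a single scaling factor per library, though a scaling that varies with abundance, such as cyclic loess, does change it. The ratios were taken between counts per exonic kilobase, for 8 pairs of genes, and tested by exact permutation over the libraries with adjustment over the 8 pairs. Per kilobase the control means ran from 554 CPM for *Ldhb*, 533 for *Pkm*, 178 for *Aldoa* and 136 for *Ldha* down to 0.129 for *Pdk4*. *Ldhb* and *Pkm* did not differ beyond their spread in this order. The order rests on the length used. Per kilobase of the transcript with the longest coding sequence, a choice made after seeing the data, *Pkm* came first (1096 CPM), then *Ldhb* (667), *Aldoa* (335), *Eno1* (266), *Gapdh* (264) and *Ldha* (248), and *Pdk4* remained last. *Hk2* stood to *Hk1* as 0.229 in the controls and 0.201 in the labelled Sox9 libraries, and *Eno2* to *Eno1* as 0.0867 and 0.0887. *Pfkl* exceeded *Pfkp* 15.1-fold and 11.2-fold, and *Pfkm* exceeded *Pfkp* 29.5-fold and 20.2-fold. With the transcript length the control ratios were 0.112 for *Hk2* to *Hk1*, 0.0550 for *Eno2* to *Eno1*, 8.37 for *Pfkl* to *Pfkp*, 10.6 for *Pfkm* to *Pfkp* and 2.69 for *Ldhb* to *Ldha*. The difference between the groups does not depend on length. *Slc2a3* stood to *Slc2a1* as 0.897 and 0.919, or 1.53 and 1.56 with the transcript length, and *Egln3* stood to *Egln1* as 0.0346 and 0.0360. For these pairs and *Ldhb* to *Ldha* the groups overlapped, and the exact p lay between 0.171 and 0.971.

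The exception was the pair of lactate transporters. *Slc16a3* stood to *Slc16a1* as 0.0570, 0.0291 and 0.0560 in Control 1, 2 and 4 and as 0.316, 0.0981, 0.229 and 0.235 in Sox9 1 to 4. The groups did not overlap, and the ratio was 4.47-fold higher in the labelled Sox9 libraries, a mean log2 difference of 2.16. The exact permutation test gave p = 0.0571 (two-sided, n = 3 and 4) and 0.457 after adjustment over the 8 pairs, so the difference did not pass. The smallest p that 35 splits allow is 0.0286. A pair that changed alone could therefore not pass 0.05 after the adjustment, whatever its size, so the adjusted p does not decide whether this ratio differed. The ratio rests on 5 to 35 counts of *Slc16a3* a library, and with cyclic loess the log2 fold changes of *Slc16a3* and *Slc16a1* lay closer, at 0.38 and -0.49.

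**Figure D5:**
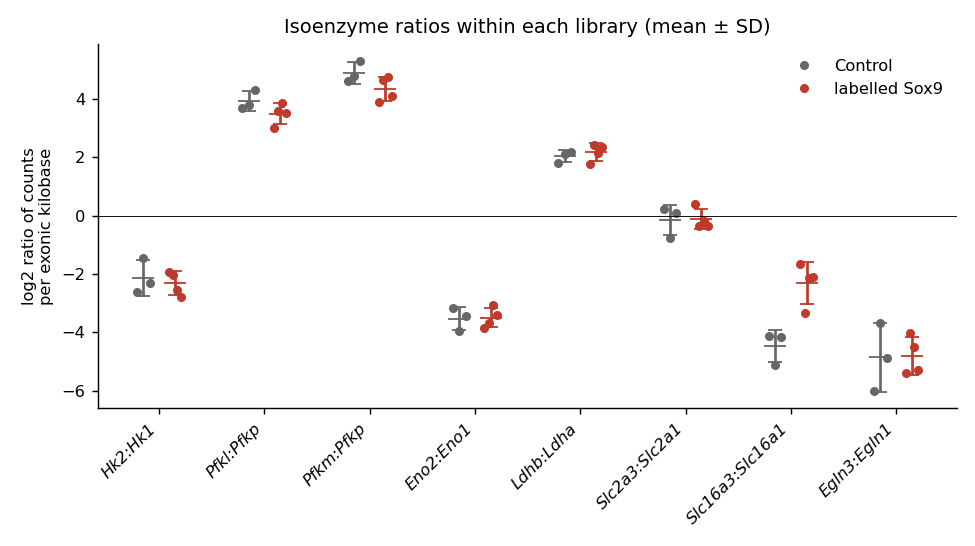
Log2 ratio of counts per exonic kilobase within each library (y axis) for the 8 pairs of isoenzymes or related genes, with the mean ± SD of the 3 control and 4 labelled Sox9 libraries. *Slc16a3* to *Slc16a1* is the pair whose groups do not overlap, at -5.11 to -4.13 against -3.35 to -1.66.

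Other genes of the pathway were called in both directions. Of 49 further genes of glycolysis and glucose metabolism, 43 were tested, 2 were called lower and 7 higher, beside 3.43% and 11.3% of all genes tested, and the median log2 fold change was 0.01. With cyclic loess 2 were called lower and 1 higher, beside 1.72% and 2.2% of all genes. Without Control 1 or Control 2 the number called higher was 3, and without Control 2, Sox9 1, Sox9 3 or Sox9 4 the number called lower was 1. *Aldoc*, the aldolase of astrocytes and radial glia, had 123, 305 and 261 CPM in Control 1, 2 and 4 and 47.0, 57.3, 36.3 and 30.0 CPM in Sox9 1 to 4. It fell by 2.42 on the log2 scale (adjusted p = 5.6e-05), more than any of the 33 members tested, and fell by 2.13 with cyclic loess (adjusted p = 0.000556 by limma). *Gpd1*, the cytosolic glycerol 3-phosphate dehydrogenase that draws triose phosphate toward lipid synthesis, had 1.43, 2.35 and 2.54 CPM against 48.8, 56.1, 12.3 and 43.8 CPM. It rose by 4.25 on the log2 scale (adjusted p = 5.6e-05) and by 3.93 with cyclic loess (adjusted p = 0.000213). *Pklr*, the pyruvate kinase of liver and red cells, had 5, 1 and 4 counts against 33, 32, 43 and 10 counts and rose by 3.47 (adjusted p = 0.000912), which cyclic loess scaling gave as 1.67 (adjusted p = 0.0194).

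Of 11 genes of the pyruvate dehydrogenase complex and mitochondrial pyruvate entry, 1 was called lower and none higher, beside 3.43% and 11.3% of all genes and 8.05% and 0.6% of genes above 6 on the log2 CPM scale. Their median was -0.30, beside -0.26 for genes above 6. It was *Pdp2*, the phosphatase that reactivates the complex, with 243, 241 and 233 CPM against 178, 168, 180 and 143 CPM, a log2 fold change of -0.51 and an adjusted p of 0.00462. *Dld* and *Pdhb*, subunits of the complex, had log2 fold changes of -0.47 (adjusted p = 0.0104) and -0.34 (adjusted p = 0.0286). DESeq2 called 4 of the 11 lower, beside 7.42% of the genes it gave an adjusted p, and with cyclic loess none was called. By edgeR the call of *Pdp2* was kept without Sox9 1 or Sox9 3 and lost without any of the other 5 libraries. Of 12 genes of the pentose phosphate pathway, 1 was called lower, the ribose phosphate user *Prps2* (-0.98, adjusted p = 0.00948), and 2 higher, the ribose 5-phosphate isomerase *Rpia* (1.46, adjusted p = 0.000965) and *H6pd* (2.08, adjusted p = 0.0098), beside 3.43% and 11.3% of all genes. With cyclic loess *Rpia* was still called (1.34, adjusted p = 0.00279), while *Prps2* (-1.02, adjusted p = 0.0194) and *H6pd* (0.96, adjusted p = 0.175) were not. Leaving out 1 library at a time in edgeR, *Rpia* was called each time, *Prps2* without Control 1 alone, and *H6pd* without Control 2 or Sox9 2 alone.

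Of 18 genes of the system that controls Hif1a, none was called in either direction at an adjusted p under 0.01 by edgeR, 6 (33.3%) had an unadjusted p under 0.05, beside 44.0% of all genes, and the median was -0.07. The cyclic loess fit called none of them either, and DESeq2 called 1 lower, *Rbx1* (adjusted p = 0.00264). The smallest p were those of *Rbx1*, a ubiquitin ligase subunit (log2 fold change -0.33, adjusted p = 0.0208), *Epas1*, the Hif2a gene (2.04, adjusted p = 0.0426, 0.03 with cyclic loess, 1.58 without Control 2 and 3.58 without Control 4), and *Cited2*, an inhibitor of Hif1a that competes for its coactivator (-0.50, adjusted p = 0.0557). Of 39 further targets of hypoxia-inducible factors, 36 were tested, none was called lower by edgeR and 4 were called higher, beside 3.43% and 11.3% of all genes, with a median of -0.17. An unadjusted p under 0.05 was reached by 15 (41.7%), beside 44.0% of all genes. DESeq2 called 6 lower and 4 higher, beside 7.42% and 11.0% of the genes it gave an adjusted p, and cyclic loess 1 lower and 2 higher, beside 1.72% and 2.2%. Those with the smallest p were the nuclear receptor gene *Rora* (2.10, adjusted p = 0.000383), the collagen lysyl hydroxylase *Plod1* (1.69, adjusted p = 0.00064) and *Flt1*, a receptor for Vegfa and an endothelial marker (2.53, adjusted p = 0.00145). With cyclic loess *Rora* (1.82) and *Plod1* (1.67) were still called and *Flt1* was not (1.73, adjusted p = 0.0164 by limma).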

How the data were processed

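The authors sequenced 7 libraries of sorted High RFP cells, described as biological replicates (3 control, 4 labelled Sox9). Reverse transcription was primed with poly-dT, and reads carried no molecular identifiers. The authors demultiplexed with bcl2fastq 2.17.1.14, trimmed with cutadapt, and aligned to GRCm38 (mm10) with STAR 2.5.2b, per the labels and the methods. Reads were counted by the authors on Ensembl genes, but the program, the use of strand and the treatment of reads shared by several genes are not given in the sources used here. The deposited counts are raw whole numbers per Ensembl gene. The deposited FPKM values, scaled by the authors by gene length and library, served only as a filter in 1 alternative.

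Counts were tested with edgeR 4.0.16 (TMM, filterByExpr, quasi-likelihood test, two-sided, Benjamini-Hochberg adjustment over all 16522 genes tested) in R 4.3.3, and genes were called at an adjusted p under 0.01. DESeq2 1.42.0 and limma 3.58.1 (limma-trend after cyclic loess) were alternatives, with other filters, a replicate block and the omission of each library. CPM used TMM-scaled library sizes. An exact permutation test over 35 splits was used for single values, computed with numpy 2.4.6, and 0.5 was added to each count in ratios. Errors are SDs between libraries or SEs of the fit, and the limit given for a count of 0 covers counting error only. The fits were tested on simulated data. Symbols, exonic lengths and transcripts came from GENCODE release 21 for GRCm38, which held 36345 of the 38124 genes. Promoters came from RefSeq. A replicate's number came from its title. Samples with the same number did not deviate together (correlations of -0.16 to 0.15), so the reported fit did not pair them. With so few libraries, a link between same-numbered ones is not excluded.

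The members and lists were chosen with earlier results of these data known. The named genes were all members, *Sox9*, every one of 13 reference genes, and the 3 genes of each other pathway list with the smallest p. Markers were given by counts and summed levels, except *Olig2*, which was added outside these rules. A further 2 reference genes are not reported here. No per-sample column was left out.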

Additional observations from a re-analysis of the deposited data

Results flagged for a closer look

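Among 71 sets of 4 labelled Sox9 values, 2 held a library far from the other 3, where chance gives about 1 set in 20. *Vegfa* stood at 5.24 CPM in Sox9 4 and between 1.98 and 2.35 CPM in the other labelled Sox9 libraries. *Cited2*, an inhibitor of Hif1a, stood at 40.2 CPM in Sox9 2 and between 23.7 and 26.4 CPM in the others. Sox9 4 was the library with the fewest counts (4429704), and its *Vegfa* value rests on 25 counts.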

How the results depend on the processing

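Of the members called, lower counted 3 in the reported fit, 6 with DESeq2, 4 with DESeq2 size factors in edgeR, 7 with no filter, 2 with protein-coding genes only, 0 with cyclic loess, with at least 10 counts in every library or with a mean FPKM of at least 1 (18 members tested), and 8 at an adjusted p under 0.05. Leaving out 1 library gave 0 to 1. Higher counted 0 throughout, and 1 at an adjusted p under 0.05. With the replicate number as a block, the members called lower were 1 (numbers of the titles) or 0 (numbers of the descriptions). All genes called were then 218 and 353 lower and 400 and 1034 higher, beside 567 lower and 1862 higher in the reported fit. The correlations of same-numbered libraries ran from -0.16 to 0.15, and 1 control correlated best with its own number.

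All genes called lower counted 1391 with DESeq2, 284 with cyclic loess, 1452 with no filter, 204 with at least 10 counts, 100 with an FPKM of at least 1, 1787 at an adjusted p under 0.05, and 208 to 475 without 1 library. Those called higher counted 363, 638, 190 and 3616 with cyclic loess, at least 10 counts, the FPKM filter and the looser threshold, and 827 to 1590 without 1 library. The cause was not tested.

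Log2 fold changes near 0 changed sign. With cyclic loess these were *Pfkl* (0.008), *Eno1* (0.029), *Slc2a1* (0.084), *Slc2a3* (0.16), *Pdk3* (-0.60), *Pfkfb2* (0.006), *Egln1* (0.002), *Ywhaz* (0.075), *Ppia* (0.009), *Tuba1a* (0.17) and *Eef2* (0.097). With DESeq2 and with no filter they were *Hk2* (-0.011 and -0.014), *Pfkfb3* (-0.045 and -0.046), *Pfkfb4* (-0.013 and -0.018) and *Ndrg1* (-0.041 and -0.044). With at least 10 counts they were *Slc2a1* (0.045), *Slc2a3* (0.069), *B2m* (0.006) and *Tuba1a* (0.029), with the FPKM filter *B2m* (0.037) and *Tuba1a* (0.057), and with the block by title *Pfkfb3* (-0.098) and *Pfkfb4* (-0.021). *Gapdh* against *Actb* alone was 0.15, and against the 8 reference genes without 1 library -0.056 to 0.046. Without 1 library the ranges that crossed 0 were -0.028 to 0.27 for *Hk2*, -0.025 to 0.39 for *Pfkp*, -0.22 to 0.089 for *Slc2a1*, -0.19 to 0.021 for *Slc2a3*, -0.25 to 0.66 for *Pdk3*, -0.088 to 0.18 for *Pfkfb3*, -0.71 to 0.63 for *Egln3*, -0.46 to 0.043 for *Vegfa*, and -0.18 to 0.45 for *Ndrg1*. For the ratios they were -0.53 to 0.65 for *Egln3* to *Egln1*, -0.44 to 0.16 for *Hk2* to *Hk1*, -0.18 to 0.21 for *Eno2* to *Eno1* and -0.26 to 0.22 for *Slc2a3* to *Slc2a1*. In the other members *Gpi1*, *Pkm*, *Ldha*, *Pgk1*, *Tpi1*, *Gapdh*, *Aldoa*, *Ldhb* and *Hif1a* the log2 fold change stayed below 0 in every alternative.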
